A study of Mus musculus with 24 samples.

Results

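Mouse embryonic stem cells that had lost the MLL3 and MLL4 proteins were compared directly with cells that kept both proteins in a catalytic-dead form, in the formative state and across all 16617 genes of the deposited expression table. The comparison uses 6 of the 24 samples: 3 formative knockout samples (genotype MLL3KO_MLL4KO) and 3 formative catalytic-dead samples (genotype MLL3CD_MLL4CD). All were taken 63 h after LIF2i withdrawal, the removal of the medium that holds the cells in the naive state. Further formative groups, with 3 samples each, served as each line's own reference, under the same withdrawal. They were a line without MLL3 and with a floxed Mll4 gene (MLL3KO_MLL4fl), which is the reference of the knockout, and wild type, which is that of the catalytic-dead line. The naive knockout and catalytic-dead groups, with 3 samples each and no withdrawal, were used to ask whether a difference depends on the state. The labels give the R1 line for catalytic-dead and wild-type cells and no line name for knockout and floxed cells, so genotype and line of origin cannot be told apart in the direct comparison. The design states that the 3 replicates of a group were cultured, collected and prepared independently.

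MLL3 and MLL4 (genes Kmt2c and Kmt2d) are large histone methyltransferases that place a single methyl group on lysine 4 of histone H3, mainly at enhancers. They also act as scaffolds: their complex carries the H3K27 demethylase UTX (Kdm6a) and the subunits PTIP, PA1 and NCOA6. A knockout removes the scaffold together with the enzyme, while a catalytic-dead allele removes the enzyme activity and leaves the protein, so the direct comparison asks how expression differs between those conditions. Formative cells are an intermediate of pluripotency between the naive state and the primed epiblast, marked by Fgf5, Otx2 and Pou3f1.

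The table gives each group's mean log2 CPM (counts scaled by the library total, on a log2 scale), and the counts of single libraries were recovered from those means. The knockout column averages 4 libraries, and the one with 6919314 counts is also averaged into the catalytic-dead column. Across 6732 genes, log2 CPM in that library correlated at 0.901 to 0.933 with the other catalytic-dead libraries and at 0.740 to 0.762 with the knockout libraries. It was therefore kept among the catalytic-dead libraries and taken out of the knockout mean. The 3 knockout libraries hold 9975146, 7005380 and 4808564 counts and the 3 catalytic-dead libraries 13973647, 10571912 and 6919314. They are called a, b and c by falling depth, and these letters are not the replicate numbers of the labels. Levels below are CPM per library, or for a group 2 to the power of its mean log2 CPM, and differences are in log2 CPM as knockout minus catalytic-dead. Group levels include a small count added before the log, and library CPM does not. A group without counts thus reads as 0.205 CPM, and low group levels can lie above their libraries.

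Marker levels set the formative groups apart from the naive ones in both genotypes. Fgf5, a growth factor of the formative epiblast, stood at 58.7 CPM in formative knockout and 19.4 CPM in formative catalytic-dead cells, against 0.787 and 1.0 CPM in the naive groups. The naive factor Esrrb went the other way, at 61.5 and 28.9 CPM in the formative groups against 209.5 and 163.1 CPM in the naive ones.

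The targeted genes came first. Kmt2c, encoding MLL3 (chromosome 5, 25271798 to 25498783, mm10), was at 12.9, 16.8 and 17.1 CPM in the knockout libraries, against 40.7, 27.6 and 38.9 CPM in the catalytic-dead ones. The groups did not overlap, and the difference was -1.18 (SE 0.29, adjusted p = 0.00419). Its level was 19.2 CPM in the floxed line, which also lacks MLL3, and 37.1 CPM in wild type. Kmt2d, encoding MLL4 (chromosome 15, 98831669 to 98871204), was at 24.4, 17.8 and 18.3 CPM against 22.3, 19.5 and 18.8 CPM. Those groups overlapped, with a difference of -0.01 and a 95% interval from -0.40 to 0.38. The Kmt2d level was 25.5 CPM in floxed and 35.7 CPM in wild-type cells. Catalytic-dead cells were below wild type (-0.81, adjusted p = 0.00216 by limma), and knockout against floxed did not pass (-0.34, adjusted p = 0.231). The libraries read the 3′ ends of transcripts, so a tag outside a deleted exon does not test a deletion.

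Of the 16617 genes, 12493 had library values in both groups. Of these, 12415 also passed the filter on low counts and were tested, which is 74.7% of all genes in the table. At an adjusted p under 0.05, 1191 genes were higher in knockout cells (9.59% of those tested) and 1182 were lower (9.52%). At least 2-fold changes made up 680 of the higher and 867 of the lower genes, and the medians were 1.11 and -1.53. The libraries of the groups did not overlap in 36.3% of all tested genes and in 2302 of the called ones. Without catalytic-dead library a, the deepest of the 6, the counts were 761 higher and 904 lower. Leaving the shared library out of both groups gave 870 and 971. Used as deposited, with the shared library still in the knockout mean, the column gave 210 and 447, and the SD of the difference over all genes was 0.625 in place of 0.832. The 4202 untested genes are mostly abundant ones, whose counts could not be solved one by one. In these the group means were at least 2-fold higher in knockout cells for 219 genes (5.21%) and at least 2-fold lower for 74 (1.76%).

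**Figure D1:**
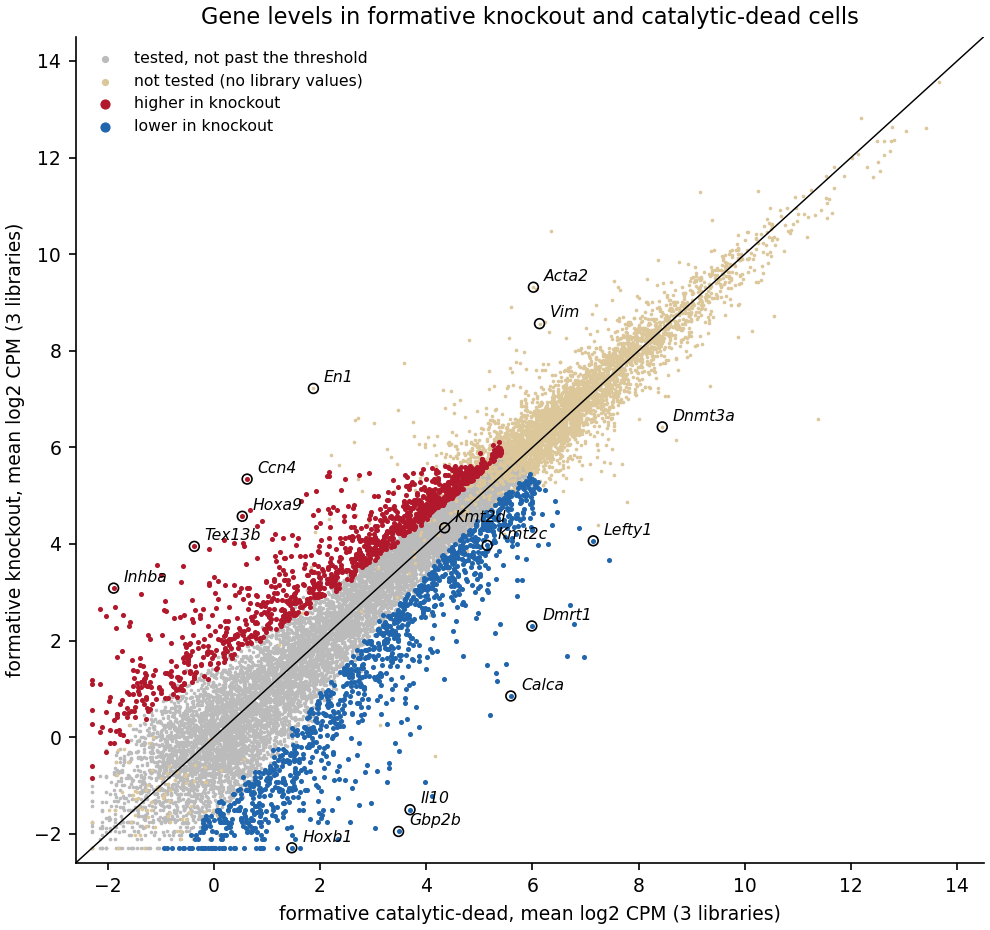
Mean log2 CPM of each gene in formative catalytic-dead (x axis) and knockout cells (y axis), 3 libraries a group; the line marks equal levels. Red and blue points are the 1191 higher and 1182 lower genes, grey points were tested and not called, and tan points have no library values; En1, Acta2 and Vim lie far above the line among the untested genes.

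The 12 highest genes with separate libraries include a matricellular protein, an activin subunit, a collagen and a Hox gene. Ccn4, a secreted matricellular protein, was at 38.9, 47.7 and 35.6 CPM in the knockout libraries, against 2.15, 0.946 and 1.16 CPM in the catalytic-dead ones, a difference of 4.72 (SE 0.34, adjusted p = 2.43e-11). Inhba, which encodes the subunit of activin A (chromosome 13, 16011851 to 16031621), reached 8.32, 6.71 and 10.2 CPM against 0.0716, 0 and 0.145 CPM. That is 179 counts against 2, a ratio of 129.2 with a 95% counting interval of 35.3 to 1075.4. Libraries without overlap were a condition for choosing the named genes, so the lack of overlap is no further result. Col8a1, a short-chain collagen, was at 26.7, 23.4 and 27.2 CPM against 2.22, 0.662 and 1.73 CPM (difference 4.02, SE 0.35, adjusted p = 1.12e-09). Hoxa9, a posterior homeobox gene, was at 19.9, 25.7 and 25.8 CPM against 1.43, 1.32 and 1.01 CPM (4.04, SE 0.39, adjusted p = 1.21e-08).

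The other 8 of these genes have varied functions. Tex13b, an X-linked gene known from testis, was at 19, 12.6 and 14.8 CPM against 0.358, 0.568 and 0.867 CPM (4.32). Ankrd1, an ankyrin-repeat protein induced in stressed muscle, had group levels of 10.2 and 0.50 CPM (4.35). The urotensin-related peptide gene Uts2b stood at 6.44 and 0.274 CPM (4.55), and the uroplakin Upk1b at 5.19 and 0.336 CPM (3.95). Gdpd3, a phosphodiesterase of lysophospholipids, gave 124 counts against 1, a ratio of 179.1 with an interval of 31.6 to 7129. AI662270 stood at 11.8 and 0.476 CPM (4.64). Pnp2, a purine nucleoside phosphorylase, gave 124 counts against 3 (ratio 59.7, interval 20.0 to 293.4), and the NKG2D ligand Raet1e stood at 11.6 and 0.664 CPM (4.13). These last 2 genes also differed between the reference lines: Pnp2 was at 6.40 CPM in floxed and 0.651 CPM in wild-type cells, and Raet1e at 4.40 and 0.350 CPM.

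The genes at the low end, of which 11 of the lowest 12 are given, include a transcription factor, signalling molecules and enzymes of conjugation. Dmrt1, a factor of the germ line and testis, was at 5.51, 4.85 and 3.95 CPM in the knockout libraries, against 77.3, 42.0 and 78.0 CPM in the catalytic-dead ones (-3.69, SE 0.30, adjusted p = 2.69e-10). Calca, the gene of calcitonin and its related peptide, was at 1.90, 1.14 and 1.87 CPM against 43.6, 50.0 and 50.9 CPM (-4.74, SE 0.36, adjusted p = 4.88e-10). The floxed and wild-type levels of those genes, 22 and 23.9 CPM for Dmrt1 and 40.5 and 26.2 CPM for Calca, were above every knockout library. For Dmrt1, knockout cells were below floxed (-2.16, adjusted p = 5.65e-06) and catalytic-dead cells above wild type (1.41, adjusted p = 9.59e-06), both by limma.

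Fgf8, a growth factor of the gastrulating embryo, was at 0.702, 0.286 and 1.04 CPM against 10.7, 10.7 and 11.6 CPM (-3.77, SE 0.46, adjusted p = 4.33e-07). Floxed and wild-type cells stood at 25.7 and 34.8 CPM, and catalytic-dead cells were themselves below wild type (-1.64, adjusted p = 1.04e-06 by limma). The glutathione transferases Gstt2 and Gstt1 stood at 12.8 against 173.9 CPM (-3.77) and 0.524 against 9.62 CPM (-4.20), and the secreted phospholipase Pla2g10 at 2.87 against 45.1 CPM (-3.97). Il10, an anti-inflammatory cytokine, gave 3 counts against 401, a ratio of 92.6 with an interval of 31.4 to 450.7. Its level was 1.03 CPM in floxed and 0.392 CPM in wild-type cells, so here the catalytic-dead group was the one that stood apart from the other 3 groups. Rassf9, an adaptor of endosome recycling, stood at 0.482 against 6.11 CPM (-3.67). It was at 1.16 CPM in floxed and 3.08 CPM in wild-type cells, and knockout against floxed did not pass (-1.26, adjusted p = 0.177 by limma). The remaining 3 genes had 1 or 2 counts in the knockout group. Gdpd2, a phosphodiesterase, gave 1 against 158 counts (ratio 109.4, interval 19.4 to 4349), Ddx60, a helicase-like antiviral protein, 2 against 183 (63.4, interval 17.3 to 527.1), and Gbp2b, an interferon-inducible GTPase, 1 against 351 (243.1, interval 43.3 to 9627). Gbp2b was also low in floxed cells, at 0.250 CPM against 6.54 CPM in wild type.

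**Figure D2:**
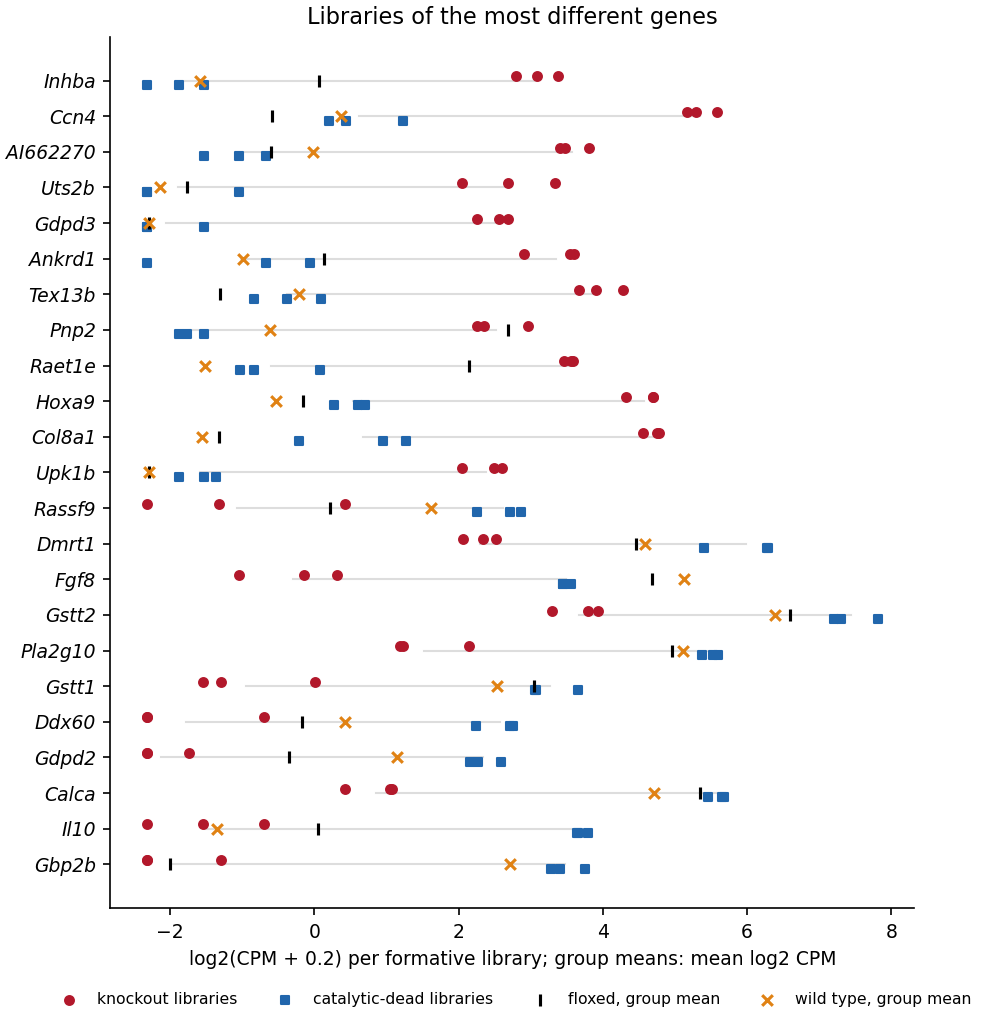
log2(CPM + 0.2) of each formative library for the 12 highest and 11 of the 12 lowest genes; red circles are knockout and blue squares catalytic-dead libraries, and the bar and the cross mark the mean log2 CPM of floxed and wild-type cells. Red and blue points do not overlap because the genes were chosen by that rule. For Pnp2, Raet1e, Gbp2b, Gdpd2, Ddx60, Il10 and Rassf9 the floxed mean lies nearer the knockout mean than the catalytic-dead mean.

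Upstream sequence is shown for 2 of the highest and 2 of the lowest genes, to set the start regions of genes that moved in opposite directions side by side. Of those 24 genes, 7 have a single window in the RefSeq promoter table (GRCm38.p6) that lies outside the annotated gene. Each line gives the 250 bases before the start, on the gene's strand, with CG pairs in capitals.
Inhba: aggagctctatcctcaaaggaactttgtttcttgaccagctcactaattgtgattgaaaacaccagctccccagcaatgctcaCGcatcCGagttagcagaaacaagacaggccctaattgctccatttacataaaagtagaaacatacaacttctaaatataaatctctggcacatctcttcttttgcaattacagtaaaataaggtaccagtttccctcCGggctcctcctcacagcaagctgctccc
Tex13b: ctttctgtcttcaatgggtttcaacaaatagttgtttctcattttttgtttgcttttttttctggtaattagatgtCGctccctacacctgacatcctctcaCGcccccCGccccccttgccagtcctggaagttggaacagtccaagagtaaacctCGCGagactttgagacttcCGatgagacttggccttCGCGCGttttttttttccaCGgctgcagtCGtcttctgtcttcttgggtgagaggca
Calca: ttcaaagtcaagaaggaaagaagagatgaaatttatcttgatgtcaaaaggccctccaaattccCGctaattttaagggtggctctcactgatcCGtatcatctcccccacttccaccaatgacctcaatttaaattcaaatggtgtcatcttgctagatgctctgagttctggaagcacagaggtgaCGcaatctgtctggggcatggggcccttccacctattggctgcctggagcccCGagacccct
Ddx60: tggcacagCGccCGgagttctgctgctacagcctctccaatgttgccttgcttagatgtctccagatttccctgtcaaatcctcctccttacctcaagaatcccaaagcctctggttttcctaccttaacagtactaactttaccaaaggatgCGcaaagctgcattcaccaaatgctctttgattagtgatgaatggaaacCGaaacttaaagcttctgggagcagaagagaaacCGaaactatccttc
They lie at chr13:16011601-16011850 (plus strand), chrX:140813434-140813683 (minus), chr7:114636358-114636607 (minus) and chr8:61927837-61928086 (plus). The windows hold 3, 11, 4 and 5 CG pairs in that order, and 2 of the 7 windows hold at least 10, against 37.8% of the 32851 windows of the table. Among tested genes with a matched window the share was 68.1%, by the mean over each gene's windows, and the difference was not tested. The pattern TGANTCA, a loose form of the AP-1 motif in which N is any base, reads alike on both strands. It was found in 1 of the 7, that of Uts2b (as TGAATCA), against 6.75% of all windows. Promoter windows were matched for 64.2% of tested genes, too few for a comparison of sets of called genes, which is void for that reason.

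Abundant genes without library values are described by their group means, with no test. En1, an engrailed homeobox factor of the midbrain and limb (chromosome 1, 120602418 to 120607992), stood at 149 CPM in knockout cells, against 5.73, 2.37 and 3.04 CPM in the libraries of catalytic-dead cells. The knockout mean was far above the floxed and wild-type means of 1.87 and 2.63 CPM and above the 6.17 CPM of naive knockout cells. Chst1, a keratan sulfate sulfotransferase, stood at 57.0 against 4.64 CPM, with 6.94 and 7.56 CPM in the reference lines. S100a11, a calcium-binding protein, stood at 68.8 against 6.21 CPM, and here floxed cells were at 31.7 and wild-type cells at 7.48 CPM.

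At the lower end, Dnmt3a, a de novo DNA methyltransferase, stood at 85.9 against 348.6 CPM, with 169.1 and 221.4 CPM in floxed and wild-type cells. Enpp2, the enzyme autotaxin, stood at 50.2 against 206.5 CPM (226.7 and 183.5 CPM in the references). The noncoding RNAs Mirg and Rian stood at 71.5 against 418.6 CPM and 43.3 against 185.4 CPM. Other extremes followed the reference lines. Rpl30, Rpl34, Rps3a1 and Acp1 stood at 213.8, 1436, 96.9 and 91.0 CPM in knockout cells and at 225.2, 2737, 115.9 and 97.6 CPM in floxed cells, against 11.9, 82.1, 6.53 and 8.11 CPM in catalytic-dead and 7.5, 70.2, 7.35 and 8.62 CPM in wild-type cells. Rps3a3, AA465934 and Thg1l did the reverse, at 96.4, 29.1 and 21.1 CPM in knockout cells against 2660, 220.1 and 151.6 CPM in catalytic-dead ones. Genes of ribosomal proteins have near-identical copies that share reads, so their values are uncertain, and ND3, at 15.6 against 0.785 CPM, was also high in floxed cells, at 7.78 CPM.

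Hox genes, the clustered homeobox factors that set position along the body axis, were mostly higher in knockout cells. Of 26 members in the table, all tested, 16 rose, 1 fell and 9 did not pass, with a median difference of 1.51 against 0.05 over all genes. Over all tested genes 9.59% rose and 9.52% fell, and the counts of every list below are to be read beside those shares. The risers were 4 of 7 HoxA, 2 of 5 HoxB, 7 of 9 HoxC and 3 of 5 HoxD genes. Hoxc9 was at 16.9, 14.3 and 19 CPM against 2.0, 0.851 and 0.434 CPM (3.88, SE 0.46, adjusted p = 2.13e-07), and Hoxb13 at 14.3, 19.7 and 14.8 CPM against 1.65, 0.662 and 1.16 CPM (3.65, adjusted p = 5.82e-08). Hoxc8 gave 107 counts against 3, a ratio of 51.5 with an interval of 17.2 to 253.7. Hoxb1, the most 3′ member of its cluster and a hindbrain gene, was the one that fell: it had 0 counts in all 3 knockout libraries, against 2.36, 3.50 and 2.02 CPM in catalytic-dead cells, at least 19.4-fold lower when 3 counts over the group are taken as the limit. The 9 members that did not pass lay between -0.62 (Hoxb4) and 1.64 (Hoxa11). Without catalytic-dead library a, 10 members rose and 1 fell, and without the shared library 14 and 1.

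Among signalling genes, Nodal and its antagonist Lefty1 were lower in knockout cells, while several response genes of the FGF and ERK pathway were higher. In the Nodal list, 0 of 7 tested members rose and 3 fell, with a median of -0.43 over the 10 members in the table. The ligand Nodal was at 29.5, 32.7 and 26 CPM against 85.3, 89.9 and 81.7 CPM (-1.54, SE 0.16, adjusted p = 5.82e-07). Its antagonist and target Lefty1 was at 14.9, 18.7 and 16.2 CPM against 134.6, 166.0 and 126.5 CPM (-3.08, SE 0.21, adjusted p = 3.47e-11). The knockout libraries of both genes lay below the catalytic-dead ones. Lefty2, untested, stood at 45.4 against 156.9 CPM. The receptor Acvr1b and the signal carriers Smad2 and Smad3 did not pass, at 0.31, 0.32 and -0.27, so the ligand and its antagonist fell while the receptor and signal carriers did not pass.

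Of the FGF ligands and receptors, 1 of 9 tested members rose and 1 fell (median -0.39), against 9.59% and 9.52% of all tested genes. Fgf8 was the one that fell, and Fgfbp1, a secreted carrier of FGFs, rose to 8.35 against 3.65 CPM (1.19, adjusted p = 0.00683). Fgf15 stood at 35.0 against 13.9 CPM without a test. In the FGF and ERK response list 4 of 9 tested members rose and 0 fell (median 0.47). The immediate-early factor Egr1 was at 26.4, 28.1 and 26.2 CPM against 5.01, 4.16 and 4.48 CPM (2.51, SE 0.25, adjusted p = 1.45e-08). Spry4, a feedback inhibitor of receptor tyrosine kinases, was at 15.6, 19 and 28.9 CPM against 7.37, 8.70 and 7.95 CPM (1.3, adjusted p = 0.000404). Fos and Etv4 rose by smaller or less certain margins, 1.45 (adjusted p = 0.0472) and 0.56 (adjusted p = 0.0171). The 5 tested members that did not pass ran from -0.71 (the feedback inhibitor Spry1) to 0.33 (Dusp5). Without knockout library a or c, or without catalytic-dead library a or b, 2 of 9 rose. Under a stricter filter on low values, 3 of 8 rose and 1 fell. Junb, Phlda1 and Spry2 stood at 50.6, 56.0 and 115.6 CPM against 11.0, 20.5 and 55.1 CPM without a test.

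AP-1 factors, which share Fos and Junb with that list, had 3 risers and 0 that fell among 6 tested members (median 1.09). Fosl2 was at 30.5, 26.8 and 19.3 CPM against 7.30, 7.57 and 7.80 CPM (1.71, SE 0.20, adjusted p = 2.99e-07) and Fosl1 at 3.61, 3.85 and 4.16 CPM against 1.0, 0.662 and 0.434 CPM (2.22, adjusted p = 0.00361). Jun stood at 59.2 against 27.8 CPM without a test. In the LIF and STAT3 list 2 of 6 rose and 0 fell: the feedback inhibitor Socs3 stood at 19.4 against 6.43 CPM (1.59, adjusted p = 0.000156) and the stress gene Gadd45g at 26.3 against 9.90 CPM (1.41, adjusted p = 6.65e-06). Stat3 itself stood at 103.5 against 43.0 CPM without a test. Of 12 tested Wnt genes 4 rose and 1 fell (median 0.17), and without catalytic-dead library b the counts were 2 and 1. The risers were the target genes Sp5 (5.83 against 1.86 CPM, 1.65, adjusted p = 0.000968), Axin2 (1.23, adjusted p = 0.0441) and Notum (2.43, adjusted p = 0.009), and the ligand Wnt8a (2.40, adjusted p = 0.00207). Lgr5, a receptor, fell on 3 against 23 counts, a ratio of 5.3 with an interval of 1.6 to 27.6.

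Pluripotency genes moved in no common direction. Of 7 tested naive genes 2 rose and 0 fell (median 0.27): Nr0b1, a nuclear receptor, was at 9.42, 12.3 and 13.3 CPM against 3.44, 5.20 and 2.75 CPM (1.6, adjusted p = 0.00232), and the adhesion molecule Jam2 at 31.3, 38.1 and 34.3 CPM against 16.5, 22.7 and 17.9 CPM (0.86, adjusted p = 0.00855). Among untested naive genes Zfp42, Klf4 and Esrrb stood at 67.2, 181.8 and 61.5 CPM against 26.9, 83.0 and 28.9 CPM, and Dppa5a at 52.2 against 162.8 CPM. Of the general factors, Sox2 stood at 271.5 against 131.4 CPM, and the single tested member, Pou5f1, did not pass (-0.77). In the formative list 0 of 6 tested members rose and 2 fell (median 0.03). Sox3, a SoxB1 factor, was at 10.3, 7.71 and 10.4 CPM against 62.0, 45.1 and 62.1 CPM (-2.54, SE 0.24, adjusted p = 1.75e-08), and the zinc finger factor Sall2 fell by 0.54 (adjusted p = 0.0138). The untested Pou3f1, Fgf5, Tcf15 and Lef1 stood at 613.2, 58.7, 214.7 and 59.1 CPM against 200.8, 19.4, 54.5 and 26.3 CPM, while Dnmt3l, like Dnmt3a, stood lower, at 72.0 against 172.7 CPM.

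Lineage genes were grouped by tissue, and differences between the lists were not tested. Nor was any list tested against the shares of all tested genes, 9.59% higher and 9.52% lower. Of 10 tested neuroectoderm genes 4 rose and 1 fell (median 0.73). Zic1 was at 20.5, 21.6 and 19.6 CPM against 1.36, 1.70 and 1.59 CPM (3.57, SE 0.36, adjusted p = 1.45e-08). Sox1, an early neural SoxB1 factor, stood at 46.4 against 22.4 CPM (1.05, adjusted p = 1.33e-05), and Map2, a neuronal cytoskeleton gene, at 33.2 against 14.3 CPM (1.22, adjusted p = 0.000949). Pax6, a factor of eye and forebrain, was the one that fell, to 3.69 against 8.62 CPM (-1.22, adjusted p = 0.00387). Of 9 tested mesendoderm genes 0 passed in either direction by limma and 1 had an unadjusted p under 0.05. Differences ran from -0.96 (T) to 0.88 (Gata6), and the summed level was 20.5 CPM in knockout and 17.0 CPM in catalytic-dead cells. Between floxed and wild-type cells, 0 of 9 members were higher and 4 lower. For knockout minus floxed less catalytic-dead minus wild type, 3 of 9 were higher and 0 lower, against 6.99% and 6.46% of all genes so tested.

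In the primitive endoderm list 2 of 8 tested members rose, the basement-membrane collagens Col4a1 (37.5 against 13.0 CPM, 1.53, adjusted p = 1.64e-06) and Col4a2 (14.8 against 6.69 CPM, 1.15, adjusted p = 0.000841), and the adaptor Dab2 fell (-0.79, adjusted p = 0.0104). The defining factors Gata4 and Gata6 did not pass, at 2.31 against 1.30 CPM and 1.30 against 0.706 CPM. In the trophoblast list 2 of 13 rose and 1 fell, against 9.59% and 9.52% of all tested genes. Cdx2 stood at 2.47 against 0.557 CPM (adjusted p = 0.0309), the keratin Krt19 at 11.8 against 4.70 CPM (1.33, adjusted p = 0.00172) and Krt18 at 34 against 64.7 CPM (-0.93, adjusted p = 7.95e-05). In the epithelial adhesion list 2 of 8 rose and 1 fell. Cdh2, the N-cadherin, was at 9.12, 7.85 and 15.8 CPM against 2.79, 2.93 and 4.77 CPM (1.56, adjusted p = 0.00339), Cldn7 stood at 24 against 14.8 CPM (0.69, adjusted p = 0.0332), and the P-cadherin Cdh3 fell to 4.36 against 9.13 CPM (-1.07, adjusted p = 0.00822). Epcam, untested, stood at 181.6 against 376.8 CPM.

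Contractile and mesenchymal genes were among the widest differences in level. Acta2, smooth muscle actin, stood at 637.1 CPM in knockout cells against 64.8 CPM in catalytic-dead, 18.3 CPM in floxed and 15 CPM in wild-type cells. The intermediate filament Vim stood at 377.7 against 70.2 CPM, the actin-binding Tagln at 62.9 against 9.64 CPM and Cnn1 at 80.2 against 22.3 CPM, all without a test. Of the 8 tested members of the list 3 rose and 2 fell, with a median of 1.45 over the 13 in the table. The hyaluronan receptor Cd44 was at 16, 15.7 and 15.2 CPM against 3.36, 3.41 and 1.73 CPM (2.44, SE 0.28, adjusted p = 1.17e-07), the factor Twist1 stood at 17.9 against 6.54 CPM (1.45, adjusted p = 4.89e-05) and the collagen Col1a1 at 3.61 against 1.25 CPM (1.52, adjusted p = 0.0268). Dcn, a proteoglycan, was at 2.11, 1.43 and 1.87 CPM against 11.9, 13.6 and 10.8 CPM (-2.63, adjusted p = 3.03e-06), and the surface protein Thy1 fell to 0.336 against 1.84 CPM (-2.45, adjusted p = 0.00131). Among the markers of feeder fibroblasts, Col1a1 was higher, Dcn and Thy1 were lower, and Col1a2 did not pass at 6.29 against 11.0 CPM. The summed level of the list was 1413.9 CPM in knockout and 314.9 CPM in catalytic-dead cells. In bulk RNA a change in the number of cells of a type and a change in RNA per cell cannot be told apart.

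**Figure D3:**
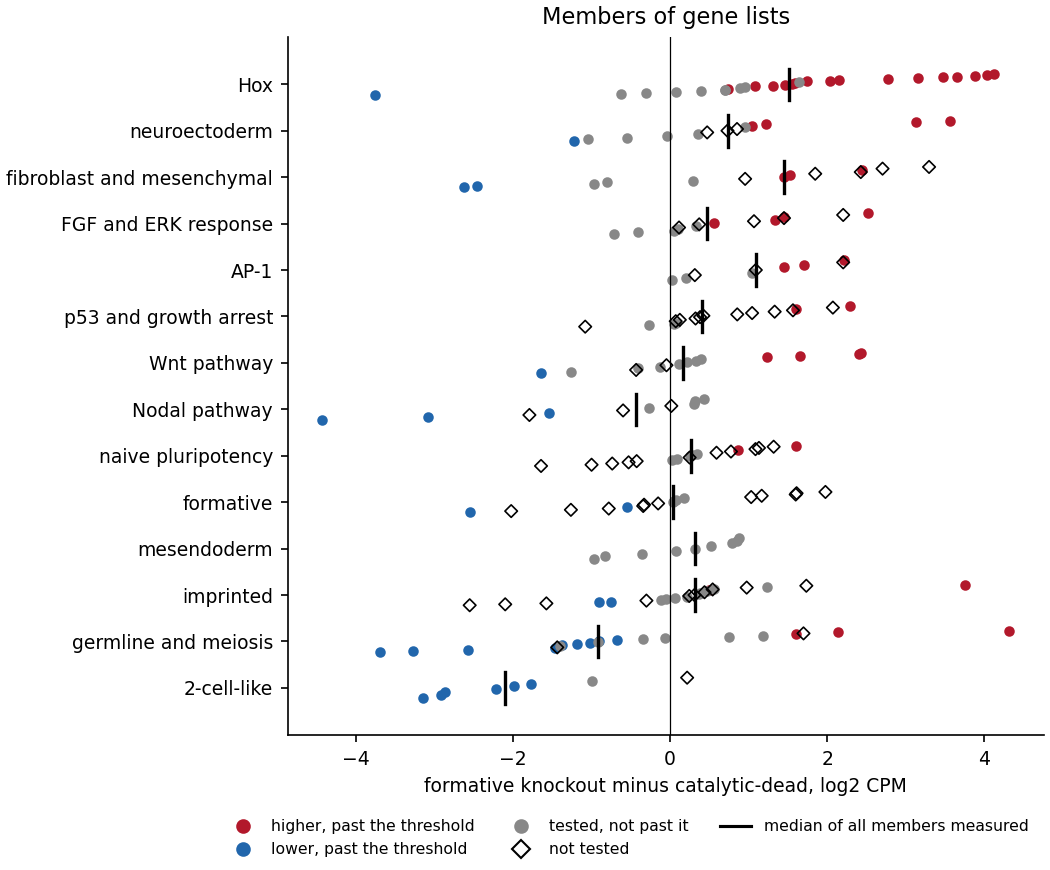
Difference between knockout and catalytic-dead cells in log2 CPM (x axis) for each measured member of 14 gene lists; filled points were tested, open diamonds were not, and the bar is the median of all measured members. Hox members lie mostly to the right with Hoxb1 alone past the threshold on the left, and the 2-cell-like members past the threshold lie on the left.

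Of 18 tested germline and meiosis genes 3 rose and 9 fell (median -0.91). Beside each line's own reference, the median was 0.08 for knockout minus floxed and 0.67 for catalytic-dead minus wild type. By the difference of these effects, 5 of 17 tested members were higher and 5 lower, against 6.99% and 6.46% of all genes so tested. Sycp3, a component of the meiotic chromosome axis, was at 0.702, 1.43 and 1.25 CPM against 17.9, 7.76 and 13.3 CPM (-3.27, SE 0.72, adjusted p = 0.00137). Mael, of the piRNA pathway, was at 3.81, 1.71 and 2.29 CPM against 15.1, 15.5 and 16.6 CPM (-2.57, adjusted p = 1.95e-06), and the RNA-binding Dazl at 3.31, 5.42 and 4.16 CPM against 10.2, 14.1 and 12.1 CPM (-1.47, adjusted p = 0.000984). The risers were Tex13b, Nlrp4c (13.5 against 3.06 CPM, 2.14, adjusted p = 9.89e-07) and the Piwi protein Piwil2 (26.6 against 8.73 CPM, 1.6, adjusted p = 7.4e-05). Tex19.1 and Rhox5, untested, stood at 634.5 against 195.4 CPM and 95.5 against 258.2 CPM.

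Genes of the 2-cell-like state, a rare embryonic program in stem cell cultures, fell in 6 of 7 tested members and rose in 0 (median -2.10). Zscan4c was at 0.401, 0.571 and 1.46 CPM against 5.01, 7.66 and 7.08 CPM (-2.86, adjusted p = 0.00014), Zscan4d stood at 0.523 against 2.42 CPM (-2.21, adjusted p = 0.00261), Tmem92 at 0.460 against 4.05 CPM (-3.14, adjusted p = 1.49e-05), and Tcstv3 gave 1 count against 50 (ratio 34.6, interval 5.9 to 1395). The reference lines differed in the same genes: all 7 were lower in floxed than in wild-type cells, with a median of -3.99, and Zscan4c stood at 0.392 and 11.7 CPM there. Members of these families have near-identical copies, so single values are uncertain.

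Of 13 tested imprinted genes 2 rose and 2 fell, against 9.59% and 9.52% of all tested genes. Peg13, a noncoding RNA, was at 5.21, 6.57 and 9.57 CPM against 0.572, 0 and 0.723 CPM (3.75, SE 0.51, adjusted p = 2.32e-06), and Nnat rose by 0.50 (adjusted p = 0.0475). Zrsr1, a splicing factor gene, fell to 29.3 against 54.8 CPM (-0.90, adjusted p = 0.000519) and Mest to 17.1 against 28.7 CPM (-0.75, adjusted p = 0.0174). The linked noncoding RNAs Meg3, Rian and Mirg on chromosome 12 all stood lower without a test, Meg3 at 313.5 against 932.8 CPM, and Ndn stood at 44.2 against 13.3 CPM. Of 5 tested p53 and growth-arrest genes 2 rose and 0 fell. The kinase inhibitor Cdkn2b was at 12.3, 14.0 and 8.32 CPM against 1.86, 3.31 and 1.59 CPM (2.29, adjusted p = 6.9e-06) and the death receptor Fas stood at 4.39 against 1.45 CPM (1.6, adjusted p = 0.00853). The untested Cdkn1a, Mdm2, Cdkn2a and Ccnd1 stood at 336.2, 407.2, 133.2 and 174.8 CPM against 79.9, 197.3, 45.0 and 69.4 CPM, and Cdkn1b at 48.3 against 102.0 CPM.

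Chromatin regulators are given by complex. In the MLL3 and MLL4 complex, the coactivator subunit Ncoa6 rose to 41.1 against 23.6 CPM (0.80, SE 0.20, adjusted p = 0.00573), Kmt2c fell, and Kdm6a, at 0.18, did not pass. Untested subunits lay between -0.41 (Dpy30) and 0.39 (Rbbp5). Among Polycomb genes 1 of 4 tested members rose: Bmi1 was at 45.4, 57.4 and 43.9 CPM against 19, 23.8 and 18.5 CPM (1.25, adjusted p = 4.98e-06), and Mtf2, untested, stood at 235.4 against 481.3 CPM. Of the 2 other H3K4 methyltransferase genes tested, the 2 demethylase genes, the single coactivator and the single DNA methylation gene, 0 passed by limma, and 1, an H3K4 methyltransferase gene, had an unadjusted p under 0.05. Interferon-type genes (8 tested), glycolysis (4) and cholesterol synthesis (7) also had 0 members past the threshold, with medians of 0.01, -0.05 and 0.17, and 0, 1 and 1 members at an unadjusted p under 0.05. Ifitm1 stood at 51.2 against 177.0 CPM and Ifitm3 at 258.5 against 119.7 CPM without a test. Of 12 tested genes of the mitochondrial genome 2 rose and 1 fell, against 9.59% and 9.52% of all tested genes. They were the transfer RNA genes mt-Tr (21 counts against 3, ratio 10.1, interval 3.0 to 52.9), mt-Tf (1.5, adjusted p = 0.0339) and mt-Tn (-0.90, adjusted p = 0.0199).

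Of the named calls in the direct comparison, those of 17 genes were lost in at least 1 fit that left out a library, and all 17 are members of the lists. Fos, Col1a1 and Nnat lost the call whichever library was left out, so those calls were marginal and not carried by a single library. The difference of Fos was 1.23 to 1.62 in those fits, against 1.45 in the main one. The adjusted p of each gene is given in parentheses for the fit without the library named. Without knockout library a, the calls of Fos (0.178), Etv4 (0.0884), Axin2 (0.164), Cdx2 (0.156), Col1a1 (0.062), Cldn7 (0.0866), Nnat (0.209), Mest (0.0523), Fas (0.0508), mt-Tr (0.0642) and mt-Tn (0.0819) did not hold. Knockout library b bore on Sall2 (0.0896), Fos (0.0683), Lgr5 (0.157), Dab2 (0.0571), Col1a1 (0.0525), Nnat (0.0782) and Mest (0.135). Leaving out knockout library c ended the calls of Fos (0.0551), Etv4 (0.0622), Axin2 (0.11), Lgr5 (0.149), Cdx2 (0.0776), Col1a1 (0.0638), Cldn7 (0.194), Nnat (0.0515), mt-Tr (0.0535), mt-Tf (0.158) and mt-Tn (0.0627). Catalytic-dead library a bore on Jam2 (0.0516), Sall2 (0.0667), Fos (0.114), Etv4 (0.0555), Axin2 (0.0961), Lgr5 (0.135), Col1a1 (0.0598), Nnat (0.0704), Mest (0.0773), Fas (0.0506), mt-Tf (0.0683) and mt-Tn (0.0554). For catalytic-dead library b the genes were Fos (0.0699), Etv4 (0.0504), Notum (0.0932), Axin2 (0.0608), Cdx2 (0.0712), Col1a1 (0.0622), Cldn7 (0.177), Nnat (0.111) and mt-Tf (0.123). Without the shared library, which is catalytic-dead library c, the calls of Fos (0.152), Axin2 (0.164), Lgr5 (0.242), Dab2 (0.0575), Cdx2 (0.135), Col1a1 (0.102), Cldn7 (0.0729), Nnat (0.124), Mest (0.0877), mt-Tr (0.0613) and mt-Tf (0.0736) did not hold. Their directions did not change in any of these fits.

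The direct difference was set beside that of the reference lines, which uses other libraries. Between formative floxed and wild-type cells 453 of 11102 tested genes were higher (4.08%) and 576 lower (5.19%). Of the 1036 genes higher in knockout cells that could be tested there, 97 (9.36%) were also higher in floxed cells and 58 (5.6%) were lower. Those 97 were 21.8% of the 445 genes higher in floxed cells that the direct comparison tested. Of the 989 genes lower in knockout cells, 160 (16.2%) were also lower in floxed cells and 58 (5.86%) were higher, and the 160 were 28.4% of 563. Knockout and floxed cells both lack MLL3, while catalytic-dead and wild-type cells are both of the R1 line, so loss of MLL3 and line of origin cannot be told apart in these shares.

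**Figure D4:**
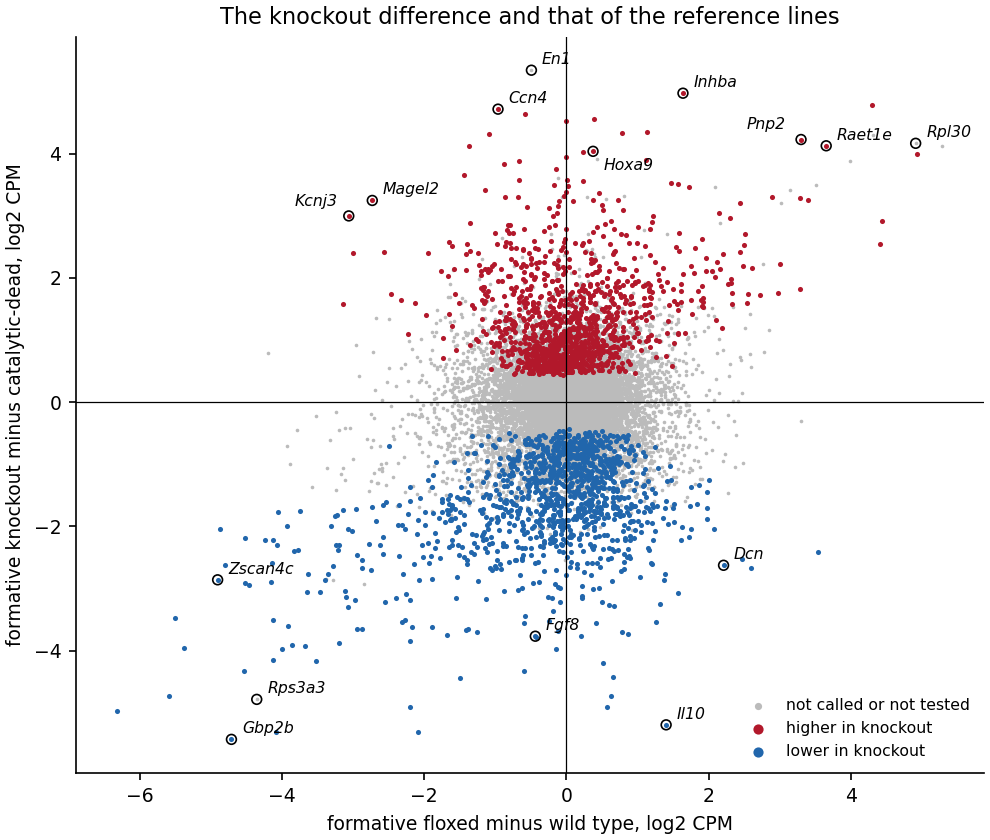
Formative floxed minus wild type (x axis) against formative knockout minus catalytic-dead (y axis), both in log2 CPM; red and blue points are genes past the threshold in the direct comparison. Pnp2, Raet1e and Rpl30 lie to the upper right and Gbp2b, Rps3a3 and Zscan4c to the lower left, whereas Inhba, Hoxa9 and Il10 lie nearer the vertical line.

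The difference of the mutant effects, knockout minus floxed less catalytic-dead minus wild type, shares its knockout and catalytic-dead libraries with the direct comparison. It was called for 765 of 10950 tested genes in the higher direction (6.99%) and 707 in the lower (6.46%). Kcnj3, a potassium channel, was at 17.1 CPM in knockout, 3.16 CPM in floxed, 2.14 CPM in catalytic-dead and 26.4 CPM in wild-type cells, so the difference of effects was 6.06 (SE 0.43, adjusted p = 1.51e-10) against 3.0 in the direct comparison. Magel2, an imprinted ubiquitin ligase regulator, followed that order at 29.5, 1.42, 3.11 and 9.41 CPM (5.98, adjusted p = 9.55e-10). Ccn4 (5.68), Tex13b (5.41) and AI662270 (5.22) were the others of the 5 highest. At the low end, Il10 was at -6.60 (adjusted p = 1.07e-07). Dcn stood at 1.99 CPM in knockout, 10.6 CPM in floxed, 12.3 CPM in catalytic-dead and 2.30 CPM in wild-type cells (-4.83, adjusted p = 4.29e-08), and Gstt1 (-4.71), the cytidine deaminase Cda (-3.97) and Sycp3 (-3.87) followed. For Pnp2, Raet1e and Gbp2b the difference of effects did not pass, at 0.93, 0.48 and -0.72 (adjusted p = 0.303, 0.707 and 0.373). In the Hox list 15 of 26 members were higher and 1 lower by this measure, and 0 were higher and 1 lower between floxed and wild type. In the 2-cell-like list 2 of 7 were higher and 0 lower.

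The difference between knockout and catalytic-dead cells was then compared between states. It was higher in formative than in naive cells for 727 of 11169 tested genes (6.51%) and lower for 325 (2.91%). With size factors in place of library totals the counts were 534 and 448, and the median over tested genes moved from 0.14 by -0.17, so the balance between directions depends on the scaling. Without naive catalytic-dead library a, 482 were higher. With a prior count of 0.5, 183 were lower. Lefty1 stood at 24 CPM in naive knockout and 6.57 CPM in naive catalytic-dead cells, the reverse of its order in formative cells (-4.95, adjusted p = 2.8e-10).

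Kdr, the VEGF receptor of early endothelium, stood at 0.658 against 9.30 CPM in naive cells and at 3.69 against 0.869 CPM in formative ones (5.91, adjusted p = 1.85e-06). Anxa1, an annexin, turned likewise, from 5.27 against 17.3 CPM to 45.2 against 4.52 CPM (5.04, adjusted p = 2.67e-08), and so did Soga3, from 0.490 against 3.29 CPM to 8.30 against 2.47 CPM (4.50, adjusted p = 1.33e-05). The Fc receptor Fcgr2b stood at 0.338 against 13.8 CPM in naive cells and had 0 and 2 counts in the formative groups, where no fold can be given. Uts2b was near the floor in both naive groups (4.55), as were Il10 (-5.16) and Gdpd2 (-4.51), while the retinol dehydrogenase Dhrs3 stood at 2.22 against 0.724 CPM in naive and 0.539 against 5.52 CPM in formative cells (-4.97). Some of the largest formative differences were also present in naive cells. Tex13b stood at 17.6 against 0.668 CPM, AI662270 at 18.5 against 0.709 CPM and Pla2g10 at 1.15 against 13.8 CPM in naive cells, and their state differences of -0.40, -0.07 and -0.39 did not pass (adjusted p = 0.788, 0.967 and 0.695). In the Nodal list 3 of 4 tested members were lower and 0 higher by state, and in the Hox list 6 of 23 were higher and 1 lower.

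**Figure D5:**
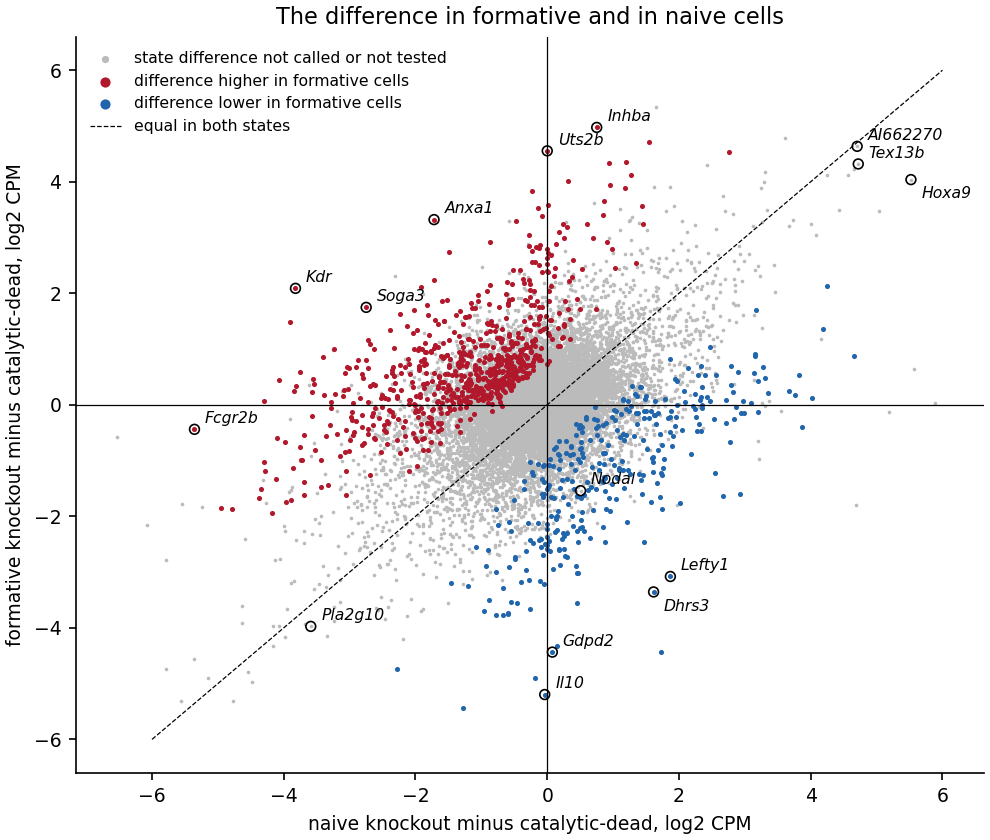
Knockout minus catalytic-dead in naive (x axis) and formative cells (y axis), in log2 CPM; red and blue points are the 727 and 325 genes whose difference changed with the state, and the dashed line marks equal differences. Lefty1 and Dhrs3 lie in the lower right and Kdr, Anxa1 and Soga3 in the upper left, where the order of the genotypes turned.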

How the data were processed

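RNA of 24 mouse stem cell samples was sequenced from 3′ ends (QuantSeq FWD, single-end, per the labels' protocols). The submitters' processing notes name cutadapt 2.5, STAR, featureCounts (Subread 1.6.4), FastQC 0.11.8, MultiQC and DESeq2 1.34.0 and the build mm10; strand setting, annotation and normalization steps are not given in the sources used here. The deposited table holds log2 CPM: the authors give 1 mean per group, with no replicates, and the values match the log2 of counts scaled by the library total with a prior count of 2. The column CKO was read as the floxed line. Library sizes (largest distance from a whole number 0.042) and whole counts per library were solved from these means and tested on simulated data; counts of 12493 genes were solved for the knockout column and 12795 for the catalytic-dead column. For abundant genes the shared library was replaced by the catalytic-dead mean. Genes with at least 10 counts at the median library size in 3 libraries were fitted with limma 3.58.1 (R 4.3.3) over 8 groups, with weights from the trend of the SD on the mean, empirical Bayes with trend and Benjamini-Hochberg adjustment over all tested genes; intervals of ratios are exact binomial and cover counting error only. Gene positions come from GENCODE vM21. Named genes are Kmt2c and Kmt2d, the 12 highest and 12 lowest called genes with separate libraries and at least 5 CPM, the 8 highest and 8 lowest untested genes, up to 4 members of each list in each direction with untested members at least 2-fold apart, and 5 in each direction for the other comparisons, leaving out predicted gene models; further members are given for contrast. Members and lists were chosen with earlier results of these data known. Alternatives were size factors, other filters, no weights, the groups compared alone, the column as deposited, the shared library left out, a prior count of 0.5 and each library left out. Values of a few genes that the rule names are not reported here.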

Additional observations from a re-analysis of the deposited data

Results flagged for a closer look

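The difference between knockout and catalytic-dead cells itself changed between the naive and the formative state for 21 genes among the highest and lowest of the direct comparison and of the comparison between states, by the interaction test in limma with Benjamini-Hochberg adjustment over 11169 genes. Over all 11169 genes 9.42% passed that test. The 21 were picked for large formative differences or large state differences, and the same formative libraries enter the test. A change with state was therefore favoured by the choice. Values are the formative minus the naive difference in log2 CPM, and negative values mean that knockout cells lie lower, relative to catalytic-dead cells, in the formative state. Of genes high in formative knockout cells, Uts2b was at 4.55, Inhba at 4.22, Col8a1 at 3.71, Ccn4 at 3.17, Ankrd1 at 3.16, Upk1b at 3.0 and Gdpd3 at 1.77. Their naive knockout levels, from 0.205 CPM for Uts2b (the value of a group without counts) to 3.52 CPM for Ccn4, were all below the formative ones. Of genes low in formative knockout cells, Il10 was at -5.16, Gdpd2 at -4.51, Ddx60 at -4.48, Gbp2b at -4.15, Rassf9 at -3.40, Fgf8 at -3.09, Gstt2 at -2.99 and Calca at -2.46. The remaining genes were chosen as those with the widest change between states among genes that passed, so their passing was fixed by the choice. They were Kdr at 5.91, Anxa1 at 5.04, Fcgr2b at 4.92 and Soga3 at 4.50 in the higher direction, and Dhrs3 at -4.97 and Lefty1 at -4.95 in the lower. For Fcgr2b the value comes from the naive groups, since its formative groups held 0 and 2 counts.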

How the results depend on the processing

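The counts of called genes depended most on the library shared by the deposited knockout and catalytic-dead columns. With the knockout column as deposited, 210 genes were higher and 447 lower in the direct comparison, 219 and 258 for the difference of the mutant effects, and 417 and 151 for the change with state. With a prior count of 0.5 the last of these was 183. Leaving out 1 library at a time gave 761 to 990 higher and 904 to 1040 lower genes in the direct comparison, 539 to 684 and 518 to 643 for the difference of effects, and 482 to 719 and 225 to 294 for the change with state; a group left with 2 libraries was assumed to vary like the others. Of the 2373 genes called directly, 1763 were also called with the shared library left out of both groups, 2284 with size factors, 2147 without weights and 1703 under a stricter filter that tests fewer genes. No named gene past the threshold changed direction under the alternatives run, while Kmt2d, which is not past it, ranged from -0.15 to 0.07. The other alternatives kept the counts of called genes within 1.5 times. No paired analysis was possible because the columns carry no replicate numbers. Depth limits low genes: libraries of 4808564 to 13973647 counts give few counts below 1 CPM, and abundant genes have no library values and hence no test.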
